A study of Mus musculus with 6 samples.

Results

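Collagen has to be hydroxylated, trimmed and cross-linked before it can bear load, and 10 genes whose products do this work are described here in mouse heart after coronary ligation: the prolyl 4-hydroxylase subunits P4ha1, P4ha2 and P4ha3, the lysyl hydroxylases Plod1 and Plod2, the procollagen processing enhancer Pcolce, and the lysyl oxidases Lox, Loxl1, Loxl2 and Loxl3. They were taken by name from 17524 genes, after the estimated counts of all transcript models of a gene had been summed, and all 10 were found by their current symbol. All 10 also passed the filter on low counts, which left 13565 genes to be tested. The series compared 3 libraries labelled WT, here control 35, 36 and 37, with 3 labelled TFEB overexpression, here TFEB 34, 41 and 43, each number being that of the library's title. The design text names the line as R26-LSL-TFEB [+/+]; Acta2-cre, in which Cre from the promoter of the smooth muscle actin gene Acta2, active in smooth muscle and myofibroblasts, removes a stop cassette in front of TFEB, a transcription factor of lysosome and autophagy genes. All 6 libraries came from hearts in which the anterior descending branch of the left coronary artery had been tied off. The labels give neither the age of the mice nor the time after the operation, nor whether the WT mice carried Cre or the cassette; without them, effects of Cre and of TFEB cannot be told apart.

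Prolyl 4-hydroxylases add hydroxyl groups to proline in the endoplasmic reticulum, which keeps the collagen triple helix stable at body temperature, and lysyl hydroxylases modify lysine, which decides what kind of cross-link can form later. Both need iron, oxygen and vitamin C. Outside the cell the propeptides are cut off, and the copper-dependent lysyl oxidases then oxidise lysine and hydroxylysine so that neighbouring molecules bond to each other. In an infarct these steps turn newly made collagen into a scar, and activated fibroblasts carry out most of them.

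No group difference of the 10 genes passed the test against the spread of the libraries. The edgeR quasi-likelihood test called 0 of 10 higher and 0 of 10 lower in TFEB overexpression at an adjusted p under 0.05, where 0% of 13565 genes were called in either direction. At an unadjusted p under 0.05 it found 0 of the 10, against 1.21% of all genes. DESeq2 and limma-voom called 0 of the 10 as well, and DESeq2 called 1 gene in all, Ddit4, or 0.00738% of the 13557 genes to which it gave an adjusted p. Of the 10, 9 had a fitted value above 0, that is, higher with TFEB overexpression (median log2 fold change 0.31), where 50.98% of all genes did (median 0.0030). Without TFEB 34 the count was 3 of 10 and the median −0.16.

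What did differ was the libraries within each group. In CPM (counts scaled to a common library size with TMM factors), TFEB 34 was the highest library for 9 of the 10 genes and TFEB 43 the lowest for 7. For 5 of them, Lox, Loxl1, Loxl2, Loxl3 and Pcolce, the libraries stood in the same order from high to low: TFEB 34, control 36, TFEB 41, control 35, control 37 and TFEB 43. The highest and the lowest library thus belonged to the same group. The 3 values of one group overlapped those of the other for 9 genes. The exception in CPM was Plod1, higher in every TFEB library, where 2.24% of all genes showed no overlap with TFEB overexpression higher and 2.51% with it lower. In TPM, the deposited values scaled for transcript length and depth, the groups overlapped for Plod1 too.

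**Figure D1:**
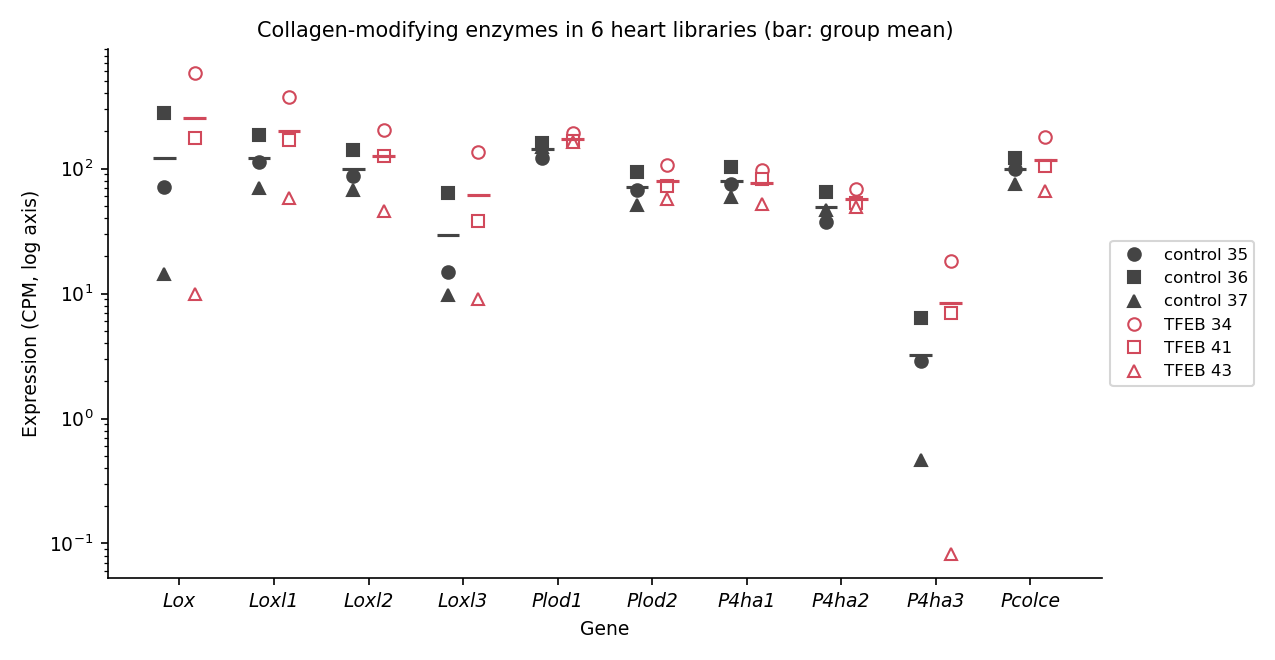
Expression of the 10 genes (CPM, log axis) in each of the 3 control libraries (filled) and the 3 TFEB overexpression libraries (open), with short bars at the group means. Lox runs from 9.83 CPM in TFEB 43 to 579.6 CPM in TFEB 34, while Plod1 stays between 122.5 and 193 CPM. The P4ha3 value of TFEB 43 rests on 1 count.

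The labels give heart as the tissue and also name primary fibroblasts and fibrocyte, but heart muscle genes led in all 6 libraries. Myh6, the myosin heavy chain of adult mouse heart muscle, ranged from 29430 to 44210 CPM over the controls and from 23130 to 49160 CPM over the TFEB libraries. The 12 cardiomyocyte markers had a summed level of 79670 to 107900 CPM over the controls and 65650 to 116900 CPM over the TFEB libraries. The 14 fibroblast markers summed to 4563 to 6320 and 3809 to 4814 CPM, respectively. The 12 markers of activated fibroblasts, among them Postn, summed to 671.5 to 4608 CPM over the controls and 479.5 to 8326 CPM over the TFEB libraries. Their sum kept the same order of libraries as Lox, but not every marker did. Acta2, also on this list, was highest in TFEB 41 (291 CPM). None of the markers in these 3 lists was at 0 in any library. The 12 macrophage markers also ran highest in TFEB 34 (1718 CPM) and lowest in TFEB 43 (541 CPM). The smooth muscle and pericyte markers (10) and the endothelial markers (10) overlapped between groups. The adipocyte markers did not: their summed level was 14.6 to 223.7 CPM over the controls and 0.127 to 9.45 CPM over the TFEB libraries. Of the 6, 4 were tested, and all 4 were lower with TFEB without overlap (median log2 fold change −4.16), where 2.51% of all genes were. By edgeR 0 were called and 4 were at an unadjusted p under 0.05, against 1.21% of all genes. All 4 stood at no more than 0.0636 CPM in TFEB 34, so they passed the filter on low counts only with the help of control libraries. Both shares over all genes are therefore no fair measure for these 4. The 223.7 CPM was the sum of control 36, with Cfd alone at 154.3 CPM. The 4 adipocyte genes at 0 in at least 1 library included Adipoq and Cidec, both at 0 in TFEB 34. The part of these cell type levels in the values of the 10 genes was not tested. In RNA from whole tissue, fewer cells of a type and less RNA per cell cannot be told apart. Tfeb itself stood at 34.4, 33.8 and 41.4 CPM in control and 45.4, 45.3 and 39.4 CPM with TFEB, with overlap. These are values of the mouse gene Tfeb, and whether they include transcripts of the cassette was not tested. Acta2, the gene whose promoter drives Cre and also one of the activated fibroblast markers, stood at 114 ± 20.1 CPM and 226 ± 59.6 CPM (SD, n = 3 each), without overlap (log2 fold change 0.98, SE 0.22, edgeR adjusted p = 1.00). That each library is a separate animal is not stated in the labels, and p-values here speak for the spread between these samples alone, which may be technical. Library totals ran from 12942480 to 14969287 estimated counts.

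The prolyl 4-hydroxylase alpha subunits carry the catalytic site of an enzyme whose other subunit is P4hb, the protein disulfide isomerase. P4ha1 (Entrez 18451, mm10 chr10:59323197-59373304) stood at 75.2, 103.9 and 59.7 CPM in controls 35, 36 and 37, against 96.7, 81.9 and 52.1 CPM in TFEB 34, 41 and 43. The groups overlapped almost fully. Its means were 79.6 ± 22.4 and 76.9 ± 22.8 CPM (SD, n = 3 each), with a log2 fold change of −0.049 (SE 0.28, edgeR adjusted p = 1.00) and a ratio whose 95% interval ran from 0.601 to 1.56. P4ha1 was the only one of the 10 with a fitted value below 0, and its sign turned without control 36 (0.19) or without TFEB 43 (0.17).

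P4ha2 (Entrez 18452, chr11:54100924-54131668) stood at 37.1, 65.2 and 46.4 CPM in control, against 69.2, 53.3 and 49.4 CPM with TFEB. Control 36 lay above both TFEB 41 and TFEB 43, so the groups overlapped. The log2 fold change was 0.21, with an SE of 0.23 (edgeR adjusted p = 1.00). It was 0.038 without control 35, 0.051 without TFEB 34 and 0.46 without control 36. P4ha3 (Entrez 320452, chr7:100285489-100319701), a subunit of low abundance in the heart, stood at 2.89, 6.32 and 0.467 CPM in control, against 18.4, 6.96 and 0.0826 CPM with TFEB. Its counts were 43, 90 and 6 in control and 289, 95 and 1 in TFEB overexpression, so the lowest libraries say little about its level. The log2 fold change was 1.395, with an SE of 1.33 (edgeR adjusted p = 1.00), or 0.13 without TFEB 34. By limma-voom it was 0.44 and by limma-trend on TPM or FPKM 0.55 to 0.67.

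Per length, P4ha1 and P4ha2 were the main alpha subunits in every library. In TPM the 3 subunits summed to 65.6, 109.6 and 60.04 in control and 123, 85.2 and 58.1 in TFEB overexpression. P4ha1 held 50.1, 43.6 and 40.5% of that sum in control and 37.4, 42.2 and 35.9% in TFEB overexpression. P4ha3 held 3.64, 5.11 and 0.550% in control and 12.6, 6.42 and 0.206% in TFEB overexpression, so its share was largest in the library with the highest collagen level. The partner P4hb, given for its role and outside the naming rule, stood at 342 ± 50.8 CPM in control, and 385 ± 103 CPM with TFEB (SD, n = 3 each; log2 fold change 0.17, SE 0.23, edgeR adjusted p = 1.00).

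P4ha1 and P4ha2 each have a pair of mutually exclusive coding exons, and the deposited table gives estimates for whole models with either exon. The P4ha1 models NM_011030 and NM_001316371 also differ in the length of their first and last exons (last exon 2301 and 1248 bases). The P4ha2 models also differ in the length of their first exon (117 and 78 bases). For both genes the shares of the models therefore need not reflect the coding exon alone. The exons are shown because they are the only coding difference between the abundant transcript models of each gene. In GENCODE M21 on GRCm38, the assembly of mm10, P4ha1 model NM_011030 has its exon 9 at chr10:59354340-59354410 and NM_001316371 has its exon 9 at chr10:59355350-59355420, both on the plus strand and both 71 bases long. The bases at which they differ, 29 of the 71, are in capitals.
P4ha1 upstream exon: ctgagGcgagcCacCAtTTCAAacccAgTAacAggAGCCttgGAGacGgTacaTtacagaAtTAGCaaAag
P4ha1 downstream exon: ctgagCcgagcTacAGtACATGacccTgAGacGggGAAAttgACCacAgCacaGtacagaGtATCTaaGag
In P4ha2 the pair is exon 13, at chr11:54126238-54126297 in NM_001136076 (60 bases) and at chr11:54126346-54126411 in NM_011031 (66 bases), plus strand.
P4ha2 60-base exon: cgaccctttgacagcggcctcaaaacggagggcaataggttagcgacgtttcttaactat
P4ha2 66-base exon: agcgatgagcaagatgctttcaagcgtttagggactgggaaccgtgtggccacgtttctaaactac

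The P4ha1 model with the downstream exon made up 50.3, 63.9 and 54.0% of P4ha1 TPM in controls 35, 36 and 37 and 53.0, 64.6 and 65.7% in TFEB 34, 41 and 43. That share did not follow the order of the collagen levels, and the groups overlapped. In P4ha2 the 2 models behaved differently from each other across libraries. The model with the 66-base exon was nearly level, at 19.7, 26.01 and 21.9 TPM in control and 25.3, 20.1 and 22.1 TPM in TFEB overexpression, a range of 1.32 times. The model with the 60-base exon ranged over 3.4 times, at 10.7, 30.2 and 13.6 TPM in control and 36.3, 23.6 and 15.01 TPM in TFEB overexpression. It held 35.1, 53.8 and 38.3% of P4ha2 in control and 58.9, 54.0 and 40.4% in TFEB overexpression. The 3 libraries with the highest shares, TFEB 34, TFEB 41 and control 36, were also those with the most fibrillar collagen transcript. Group means of the share were 42.4 ± 9.96% and 51.1 ± 9.6% (SD, n = 3 each), with overlap, and no test was run on transcript shares.

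Plod1 encodes the lysyl hydroxylase that acts on the helical part of collagen, and it was the steadiest of the 10 genes. Plod1 (Entrez 18822, chr4:147909753-147936776) stood at 122.5, 162 and 149.7 CPM in control, against 193, 167 and 162.5 CPM with TFEB. In CPM all 3 TFEB libraries lay above all 3 controls, although TFEB 43 exceeded control 36 by less than 1 CPM. In TPM Plod1 stood at 67.6, 94.04 and 76.95 in control and 115.6, 92.4 and 82.4 with TFEB, so control 36 exceeded TFEB 41 and TFEB 43 and the groups overlapped. The means were 145 ± 20.1 and 174 ± 16.4 CPM (SD, n = 3 each), with a log2 fold change of 0.27 (SE 0.14, edgeR adjusted p = 1.00) and a ratio of 1.20 (95% interval 0.953 to 1.52). Its unadjusted p was 0.101, the smallest of the 10, and 3.41% of all genes tested had one as small. The value stayed between 0.16 and 0.36 with each library left out in turn.

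Plod2 encodes the lysyl hydroxylase of the collagen telopeptides, whose hydroxylysine leads to the stable cross-links typical of scar tissue. Plod2 (Entrez 26432, chr9:92539636-92608428) stood at 67.3, 94.2 and 51.3 CPM in control, against 106, 73.01 and 57.5 CPM with TFEB. TFEB 34 and control 36 were again the highest, and the groups overlapped. The log2 fold change was 0.15, with an SE of 0.30 (edgeR adjusted p = 1.00), −0.12 without TFEB 34 and −0.032 without control 37. The telopeptide activity is ascribed to the long splice form, which holds 1 coding exon that the short form skips. That exon is shown because it tells the forms apart: it is exon 14 of model NM_001142916 in GENCODE M21, 63 bases on the plus strand at chr9:92601985-92602047.
Plod2 alternative exon: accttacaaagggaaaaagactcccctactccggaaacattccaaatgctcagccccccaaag
The long form dominated in every library, with 89.04, 90.4 and 90.1% of Plod2 TPM in controls 35, 36 and 37 and 92.7, 90.9 and 85.6% in TFEB 34, 41 and 43. The short form NM_011961 held 3.37 to 6.71% in control and 4.98 to 9.10% in TFEB overexpression. The rest fell to 2 predicted models. Per length Plod1 exceeded Plod2 in every library, with 67.0 to 78.04% of their summed TPM in control and 68.1 to 77.3% in TFEB overexpression.

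Pcolce encodes a secreted protein that speeds the removal of the procollagen C-propeptide by Bmp1 and its relatives, and per length it was the most abundant of the 10 genes in 5 of the 6 libraries. Pcolce (Entrez 18542, chr5:137605105-137611522) stood at 100.1, 121 and 75.4 CPM in control, against 180.2, 106 and 66.5 CPM with TFEB. The TFEB values lay both above and below all controls. The means were 98.8 ± 22.8 and 117.5 ± 57.7 CPM (SD, n = 3 each), with a log2 fold change of 0.25 (SE 0.37, edgeR adjusted p = 1.00), or −0.20 without TFEB 34. In TPM it stood at 128.7 ± 36.9 in control and 157 ± 88.7 in TFEB overexpression. In TFEB 43 Plod1 (82.4 TPM) exceeded it (79.4 TPM).

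Lox, the founding lysyl oxidase and the main cross-linker of fibrillar collagen and elastin, had the widest spread among the genes with over 100 counts in each library. Lox (Entrez 16948, chr18:52516060-52529867) stood at 71.9, 279 and 14.4 CPM in controls 35, 36 and 37, against 579.6, 177 and 9.83 CPM in TFEB 34, 41 and 43. The range was 19.4 times within control and 58.9 times within TFEB overexpression. Against this the difference of the means was small: 122 ± 139 and 256 ± 293 CPM (SD, n = 3 each), a log2 fold change of 1.07 (SE 1.42, edgeR adjusted p = 1.00) and a ratio of 2.102 (95% interval 0.196 to 22.6). Without TFEB 34 the log2 fold change was −0.38, and without control 36 it was 2.57. By limma-voom it was 0.54 and by limma-trend on TPM or FPKM 0.62 to 0.64.

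Loxl3, a paralogue best known from skeletal development, moved with Lox at a lower level. Loxl3 (Entrez 16950, chr6:83034205-83052566) stood at 14.8, 63.96 and 9.80 CPM in control, against 136, 37.9 and 9.09 CPM with TFEB, with overlap. The log2 fold change was 1.05, with an SE of 1.06 (edgeR adjusted p = 1.00), or −0.33 without TFEB 34.

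Loxl1 and Loxl2 spread less. Loxl1 (Entrez 16949, chr9:58287723-58313212), needed for the upkeep of elastic fibres, stood at 113, 184 and 70.4 CPM in control, against 372, 168 and 58.2 CPM with TFEB, a range of 6.4 times over the 6 libraries. Its log2 fold change was 0.70, with an SE of 0.67 (edgeR adjusted p = 1.00), or −0.12 without TFEB 34. Loxl2 (Entrez 94352, chr14:69608692-69695834), a cross-linker linked to interstitial fibrosis of the heart, stood at 86.6, 142 and 67.99 CPM in control, against 204, 126 and 45.7 CPM with TFEB, a range of 4.47 times. Its log2 fold change was 0.34, with an SE of 0.54 (edgeR adjusted p = 1.00), or −0.20 without TFEB 34. For both genes the highest and the lowest value were TFEB libraries.

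**Figure D2:**
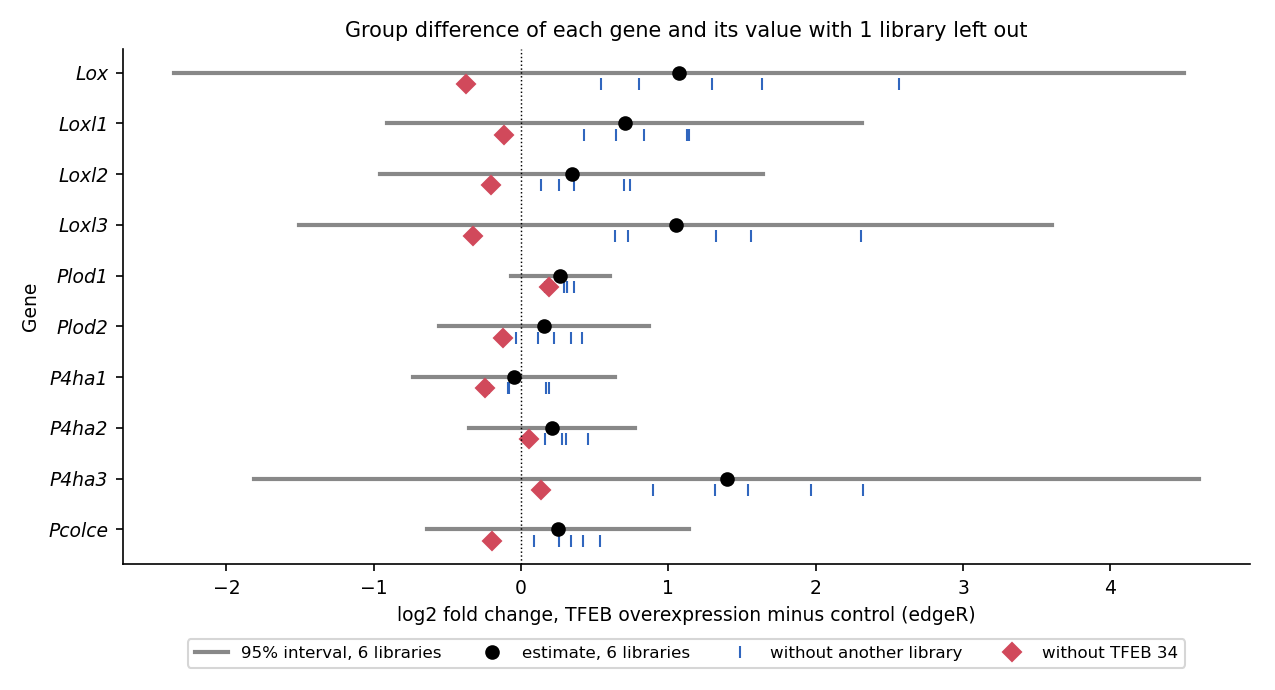
Log2 fold change of TFEB overexpression minus control for each gene by edgeR (black point) with its 95% interval (grey line), and the same estimate with 1 library left out (blue ticks, or a red diamond where TFEB 34 is left out). Every interval spans 0, and without TFEB 34 the estimate is below 0 for 7 of the 10 genes.

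Because the 4 lysyl oxidases spread to different degrees, the make-up of the family differed between libraries. Their summed TPM was 122, 291.6 and 64.4 in controls 35, 36 and 37 and 589, 216 and 49.1 in TFEB 34, 41 and 43, a range of 12 times. Loxl1 was the most abundant per length in 4 of the 6 libraries, with 35.7 to 54.6% of the sum in control and 36.8 to 58.3% in TFEB overexpression. Lox held 22.0, 37.5 and 7.56% in control and 40.1, 31.1 and 6.66% in TFEB overexpression. It exceeded Loxl1 in control 36 and TFEB 34, and was the smaller of the pair by far in control 37 and TFEB 43. Loxl2 went the other way, at 12.2% in TFEB 34 and 31.7% in control 37. Group means of the Lox share were 22.4 ± 14.98% and 26.0 ± 17.3% (SD, n = 3 each).

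The models of Lox shifted as well. In GENCODE M21 NM_001286182 starts with a separate, untranslated exon of 37 bases that NM_010728 lacks, and both models have the same coding length of 1233 bases. NM_001286182 held 46.5, 48.1 and 24.2% of Lox TPM in controls 35, 36 and 37 and 57.1, 61.8 and 18.3% in TFEB 34, 41 and 43. Its share was lowest in control 37 and TFEB 43, where Lox itself was lowest (185 and 119 counts). The remaining model, NM_001286181, was listed at 0 in control 37, TFEB 41 and TFEB 43 and at no more than 2.87 TPM elsewhere. Estimates that divide reads between such similar models are less certain than the gene's total. Loxl1, Loxl3, Plod1 and Pcolce have 1 model each in the table.

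**Figure D3:**
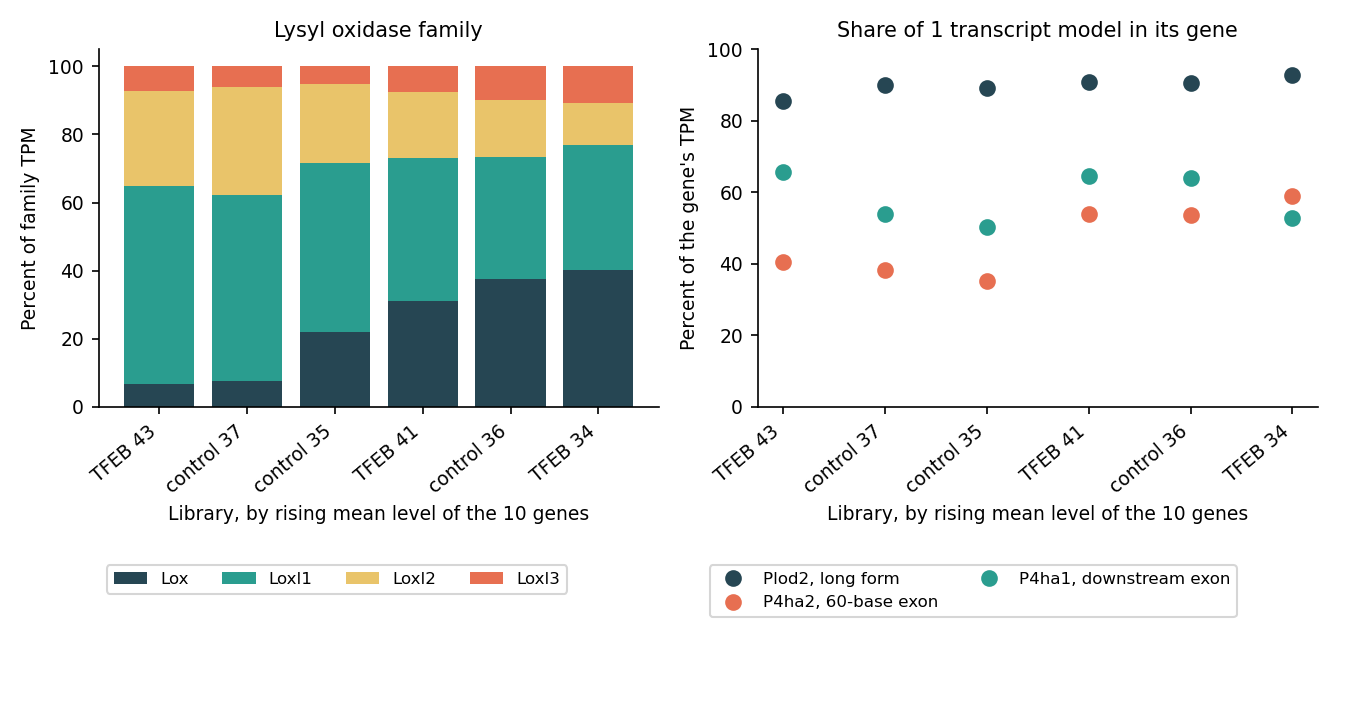
Left, the share of Lox, Loxl1, Loxl2 and Loxl3 in the summed TPM of these 4 genes in each library. Right, the share of 1 transcript model in its gene's TPM for Plod2, P4ha2 and P4ha1 (for P4ha1, NM_001316371). Libraries are ordered by the rising mean level of the 10 genes. The Lox share is 6.66% in TFEB 43 and 40.1% in TFEB 34, the long Plod2 form stays between 85.6 and 92.7%, and the P4ha2 model with the 60-base exon is above 50% in the 3 libraries on the right.

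The enzymes were then set against their substrate. The summed TPM of Col1a1, Col1a2 and Col3a1, the main fibrillar collagens of heart, was 1647, 2401 and 386 in controls 35, 36 and 37 and 3927, 2150 and 284 in TFEB 34, 41 and 43, a range of 13.8 times. Lox ranged wider than collagen on this scale (72.3 times), and Loxl3 (17.8 times) did too. P4ha3 ranged widest, by 129.7 times, but its lowest value was 0.12 TPM. Loxl1 ranged by 7.57 times, Loxl2 by 5.30 and Pcolce by 3.19. The lysyl and prolyl hydroxylases other than P4ha3 ranged by 1.71 times for Plod1, 2.03 for P4ha2, 2.29 for P4ha1 and 2.5 for Plod2. Per 1000 TPM of collagen, Plod1 therefore stood at 41.1, 39.2 and 199 TPM in control and 29.4, 42.98 and 290.1 TPM in TFEB overexpression, highest where collagen was lowest. Any gene that is steady over the libraries would give this, since collagen is the divisor. Lox ran the other way, at 16.3, 45.6 and 12.6 TPM per 1000 in control and 60.2, 31.2 and 11.5 TPM per 1000 in TFEB overexpression. The 4 lysyl oxidases together stayed within 2.33 times, at 74.3 to 167 per 1000 in control and 100.3 to 173 per 1000 in TFEB overexpression. Both groups held libraries at both ends of each ratio.

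**Figure D4:**
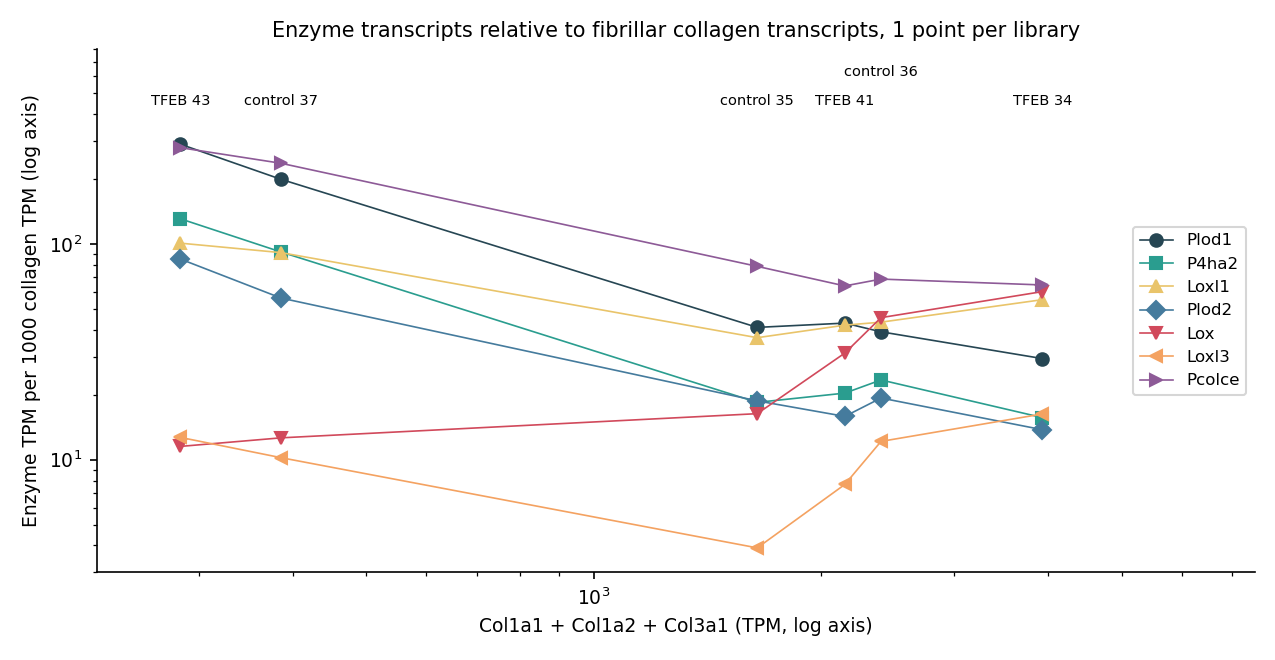
TPM of 7 of the enzymes per 1000 TPM of Col1a1, Col1a2 and Col3a1 together (log axis), against that collagen sum (log axis), 1 point per library, with lines joining the libraries of each gene. Plod1 falls from 290.1 in TFEB 43 to 29.4 in TFEB 34, while Lox is 11.5 in TFEB 43 and 60.2 in TFEB 34. Collagen enters both axes, so any steady gene falls from left to right.

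With the level of 11 fibrillar collagen genes as a covariate in edgeR, 0 of the 10 genes were called, as were 0 of all 13565. The estimates moved towards 0 for 9 of the 10. Of the 10, 6 stayed above 0, where 47.37% of all genes lay above 0 in this fit. Lox stood at −0.045, Loxl2 at −0.030, Pcolce at 0.050, Plod2 at 0.061, P4ha2 at 0.16, P4ha3 at −0.20, Loxl1 at 0.22 and Loxl3 at 0.36. Plod1 moved least, to 0.25 (unadjusted p = 0.0824, edgeR adjusted p = 0.999), and P4ha1 moved away from 0 to −0.16. With the level of the cardiomyocyte markers as the covariate instead, 0 were called, as were 0 of all genes, and 9 of the 10 stayed above 0 (median 0.26). Of all genes, 47.78% lay above 0 in that fit (median −0.0070). Lox then stood at 0.84 and P4ha3 at 1.16. The cause of these shifts was not tested.

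Other genes of collagen maturation showed the same lack of calls. Of 24 further enzymes and chaperones, edgeR called 0, as it called 0% of all genes. Of the 24, 19 lay above 0 (median log2 fold change 0.20), where 50.98% of all genes did. The members with the smallest p were Tll1, a relative of Bmp1 (−0.94, SE 0.50), the collagen galactosyltransferase gene Colgalt1 (0.28, SE 0.17) and Mia3, which loads procollagen into transport carriers (−0.13, SE 0.094). Mia3 was the only one of the 24 without overlap, where 2.51% of all genes showed none with TFEB overexpression lower. It stood at 136, 141 and 136 CPM in control, and 135, 118 and 122.5 CPM with TFEB. Control 35 and TFEB 34 were less than 1 CPM apart. Of the remaining relatives of the 10, given for their role, Loxl4 stood at 0.86 (SE 0.65), Plod3 at 0.20 (SE 0.28), Bmp1 at 0.14 (SE 0.45) and the collagen chaperone gene Serpinh1 at 0.29 (SE 0.29).

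The substrate and cofactor genes had no calls by edgeR either. Of 11 fibrillar collagen genes 0 were called and 10 had a higher value (median 0.585), where 50.98% of all genes had one. At the smallest p were Col11a2 at −0.396 (SE 0.27), Col2a1 at 1.98 (SE 1.51) and Col27a1 at 0.69 (SE 0.58). Col2a1 and Col27a1 were highest in TFEB 34, and Col11a2 in control 37. Of 7 elastic fibre genes 0 were called and 7 had a higher value (median 0.57). Over all genes 0% were called and 50.98% had a higher value (median 0.0030). Among them were Emilin1 (0.57, SE 0.51), Efemp2, which recruits Lox to elastin (0.595, SE 0.55), and Fbln5 (0.58, SE 0.75). All 7 were highest in TFEB 34 and lowest in TFEB 43, so the highest and the lowest library belonged to the same group. The copper and vitamin C transport genes were nearly level. Of 5, 4 were tested and 0 called, with the vitamin C transporter gene Slc23a2 at 0.061 (SE 0.088), the copper chaperone gene Atox1 at 0.038 (SE 0.16) and the copper transporter gene Slc31a1 at 0.028 (SE 0.13).

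P4ha1, P4ha2, Plod2 and Lox are known targets of the hypoxia-inducible factors (HIF), so 20 other genes that respond to HIF were read beside them. By edgeR 0 of 20 were called, 13 had a higher value, and the median was 0.049. Over all genes 0% were called, 50.98% had a higher value and the median was 0.0030. The mean log2 level of the list, centred on the 6 libraries, lay between −0.14 (TFEB 43) and 0.22 (control 36). For the fibrillar collagen list the lowest was −1.89 (TFEB 43) and the highest 1.57 (TFEB 34). Smallest p had Ddit4, an inhibitor of mTORC1 (−1.32, SE 0.23), the repressor gene Bhlhe40 (0.27, SE 0.17) and Mxi1, a MYC antagonist (−0.13, SE 0.088). Ddit4 stood at 74.7, 65.4 and 73.1 CPM in control and at 38.9, 25.99 and 20.3 CPM with TFEB, without overlap (edgeR unadjusted p = 0.00107, adjusted p = 1.00). Adm, the adrenomedullin gene, was the other gene of the list without overlap, higher with TFEB, and is named after its values were seen. Over all genes, 2.51% showed no overlap with TFEB overexpression lower and 2.24% with it higher.

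Promoter sequence was read for the genes that RefSeq's table on GRCm38.p6 held, 5 of the 10: Plod1, Pcolce, P4ha1, P4ha2 and P4ha3. Each window covers 250 bases before the start to 50 after it. TFEB binds E-boxes with the letters CACGTG, and sites of HIF have ACGTG at their core, or in some genes the letters GCGTG. All were searched on both strands, and each E-box of these letters also counts as a match to the first HIF core. The E-box was in 0 of the 5 windows and in 7.15% of 32851 windows of the same length. ACGTG was in P4ha1 (1 match) and P4ha2 (2 matches), against 19.6% of all windows. GCGTG was in 4 of the 5, Plod1, Pcolce, P4ha1 and P4ha2, against 32.4%, and TATAAA was in Plod1 and P4ha1, against 13.6%. The P4ha1 and P4ha2 windows are shown because these are the HIF targets among the 5, with matches to the searched letters in capitals.
P4ha1 chr10:59323046-59323345, plus strand: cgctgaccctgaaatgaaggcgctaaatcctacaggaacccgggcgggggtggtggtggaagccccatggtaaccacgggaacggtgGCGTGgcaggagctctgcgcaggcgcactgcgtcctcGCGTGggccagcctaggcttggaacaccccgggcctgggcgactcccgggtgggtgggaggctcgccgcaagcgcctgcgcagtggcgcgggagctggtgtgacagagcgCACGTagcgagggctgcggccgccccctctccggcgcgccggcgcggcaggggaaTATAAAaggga
P4ha2 chr11:54100674-54100973, plus strand: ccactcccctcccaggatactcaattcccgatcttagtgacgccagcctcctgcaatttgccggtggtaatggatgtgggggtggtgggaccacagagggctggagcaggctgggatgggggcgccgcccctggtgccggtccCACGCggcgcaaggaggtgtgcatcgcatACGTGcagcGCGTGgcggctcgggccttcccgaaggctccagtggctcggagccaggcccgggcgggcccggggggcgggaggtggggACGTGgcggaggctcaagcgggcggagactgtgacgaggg
A match describes the letters in this window and is no measure of binding.

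Outside the lists, the genes whose pattern over the 6 libraries was most like the mean of the 10 were Ccn5, a matricellular protein gene, Fcrls, a scavenger receptor gene of the Fc receptor-like family, Sfrp1, a Wnt antagonist, Tgfb3, a TGF-beta ligand, and Anxa5, an annexin. They were the top 5 of 10905 genes by Pearson r of log2 CPM over the 6 libraries (r from 0.9976 to 0.9988), picked for this likeness, so no test applies. Ccn5 stood at 28.8, 106.3 and 13.2 CPM in control, and 267, 77.9 and 7.35 CPM with TFEB. Anxa5 kept the same order over a narrower range, from 135 CPM in TFEB 43 to 232 CPM in TFEB 34.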

How the data were processed

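RNA sequencing of 6 mouse heart libraries, 3 per group, was analysed. HISAT2 2.1.0, Bowtie2 2.3.4.3, RSEM 1.3.1, DESeq2 1.4.5 and build mm10 are named, without roles, per the submitters' processing notes. Per the file headers, the deposited table gives estimated counts for each RefSeq transcript, with no scaling for depth. TPM and FPKM, also from the authors, are scaled for both length and depth. Strand setting and annotation release: not given in the sources used here. The 8 empty columns of normalised counts were not used.

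Estimated counts were summed per Entrez gene and rounded. edgeR 4.0.16 (filterByExpr, TMM, glmQLFTest, two-sided) in R 4.3.3 compared the groups over 13565 genes with Benjamini-Hochberg adjustment, and SE is the log2 fold change over the root of F. TPM shares and ratios are descriptions. RefSeq transcript models were matched to GENCODE M21 by accession, 16 of 23. Alternatives were RLE and upper-quartile scaling, DESeq2 1.42.0, limma-voom (limma 3.58.1), other filters, limma-trend on log2(TPM + 1), log2(TPM + 0.1) and log2(FPKM + 1), 2 covariates, a threshold of 0.1 and each library left out. The code was tested on simulated data.

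The 10 genes, the lists and the tests were chosen with earlier results of these data known. All 10 genes are named, with the 3 smallest p of each other list and the 5 genes most alike; others are said to be given for their role. Within groups, no 2 libraries matched within counting noise (chi-square over its degrees of freedom 43.5 to 149). The group sizes allow 0.1 as the smallest two-sided exact p, and no permutation test was run.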

Additional observations from a re-analysis of the deposited data

How the results depend on the processing

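Of the 10 genes, 0 were called under each of the 18 alternatives and at an adjusted p under 0.1, with adjusted p from 0.792 to 1.00. By DESeq2 1 gene, Ddit4, was called in all, so the HIF-responsive list had 1 call there; by edgeR 0 genes were called, with 164 at an unadjusted p under 0.05. The median log2 fold change of the 10 ran from −0.16 to 0.64 with each library left out. With the fibrillar collagen level as a covariate Lox stood at −0.0451, Loxl2 at −0.0298 and P4ha3 at −0.203, against values above 0 without it; the cause was not tested. Leaving out 1 library in turn gave −0.376 to 2.57 for Lox, −0.115 to 1.14 for Loxl1, −0.203 to 0.74 for Loxl2, −0.326 to 2.31 for Loxl3, −0.12 to 0.41 for Plod2, −0.248 to 0.19 for P4ha1 and −0.197 to 0.53 for Pcolce. The other 3 stayed above 0, at 0.16 to 0.36 for Plod1, 0.038 to 0.46 for P4ha2 and 0.13 to 2.32 for P4ha3. By limma-voom the log2 fold changes of 5 genes fell by over 1.5 times, to 0.54 for Lox, 0.39 for Loxl1, 0.14 for Loxl2, 0.44 for P4ha3 and 0.14 for Pcolce, and limma-trend lowered the same 5. From estimated counts in place of TPM the long Plod2 form held 86.4% in control. No paired analysis was possible because the groups share no library numbers. P4ha3, with 1 to 289 counts per library, is the one gene whose depth limits its values.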
